A study of Mus musculus with 18 samples.

Results

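A set of 54 genes was expressed in untreated APC-intact MC38 cells and was far lower in the isogenic line in which Apc had been deleted. The genes were chosen by their CPM in the 6 untreated libraries. A gene entered if its mean level in untreated APC-intact cells was at least 1 CPM (counts scaled to the library's total over genes) and at least 8 times the mean in untreated APC-deleted cells plus 0.01 CPM. Of 39179 genes counted, 11440 reached 1 CPM in untreated APC-intact cells and 63 passed both thresholds. From these, 6 genes on chromosome X were left out, as were Mmp2, Ephb2 and Col6a3 through a list of excluded names (Mmp2, Ephb2 and names starting with Col, Wnt, H2-, Itg, Lam or Sema). The untreated difference between the lines is thus what defined the members, and it is given here as a description. The comparisons tested below use the 12 treated libraries, which had no part in the choice.

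MC38 is a mouse colon adenocarcinoma line from the C57BL6 strain. APC is a scaffold of the complex that marks beta-catenin for destruction, and colorectal tumours commonly lose it. RNA was sequenced from 6 groups of 3 libraries: APC-intact cells and APC-deleted cells, each untreated, after 24 h and after 48 h in 1 µM doxycycline, in medium with serum approved for tetracycline systems. Doxycycline induced a short hairpin against Tdo2, which encodes a tryptophan-degrading enzyme. The sample notes place that hairpin in both lines with and without doxycycline, while only the titles of treated libraries name it, and the effects of hairpin and drug cannot be told apart. The notes call the triplicates biological without saying what was repeated, and p-values here cover the spread between libraries only. They do not say whether the APC-deleted line is 1 clone, and 1 line of each genotype was studied.

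Libraries held 71970499 to 111948430 counts assigned to genes. Apc itself was at 71.7 to 87.6 CPM in APC-deleted libraries and 96.4 to 148 CPM in APC-intact ones, so its transcript was still made. Tdo2 was between 0.0614 and 0.308 CPM in all 18 libraries. The lines separated along the first principal component (50.2% of the variance), and APC-intact 24 h replicate 1 and APC-deleted 48 h replicate 2 stood apart on later components. The file names place both lines at 48 h in set 2, whereas at 24 h the APC-intact libraries are in set 1 and the APC-deleted ones in set 2. Of 12 colon epithelium markers only Cdh1 and Krt8 reached a mean of 1 CPM, Cdx2 had 0 counts and Epcam had 2 counts in all, whereas 7 of 10 mesenchymal markers did so. Mesenchymal markers summed to 5590 to 6537 CPM in APC-intact libraries and 5612 to 7271 in APC-deleted ones, and the epithelial markers to 1.90 to 3.64 and 3.41 to 5.43 CPM. Most of the epithelial difference came from Krt8, with untreated means of 1.93 CPM in APC-intact and 3.80 CPM in APC-deleted cells. Cdh1 was at 1.05 and 1.22 CPM there, while Krt19 (0.128 and 0.0250 CPM) and Vil1 (0.103 and 0.0357 CPM) went the other way. The part of these differences in the results was not tested. In bulk RNA, fewer cells that express a gene and less RNA per cell cannot be told apart.

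A gene can be silent in a cell line while its neighbours are active. Long-term silencing of this kind is commonly accompanied by methylation of CpG dinucleotides in the promoter or by repressive histone marks, and it is passed on through cell division. None of these marks was measured here.

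In treated cells 52 of the 54 members were lower in the APC-deleted line at both times. At 48 h, 52 members were lower and 0 were higher by edgeR's quasi-likelihood test (Benjamini-Hochberg adjusted p under 0.05 over 14765 genes), where 14.7% of all genes tested were lower and 15.2% were higher. The difference was at least 8-fold for 48 members, against 0.914% of all genes. At 24 h, 52 members were again lower, against 13.7% of all genes, and 50 were lower by at least 8-fold, against 0.887%. The median difference over the members was −5.49 on the log2 scale at 48 h and −5.63 at 24 h, while the median of all genes was 0.000135 and −0.019. Ratios of pooled CPM, used for all 54 members in place of edgeR's estimates, gave medians of −5.58 at 48 h and −5.67 at 24 h. In these, the members at 0 counts (8 and 5) were set to the limit given by a floor of 3 counts per group. At both times the 3 libraries of one line did not overlap the 3 of the other for these 52 members. The share of all genes without such overlap was not computed, so this is a description only. The exceptions, Gm12033 and Gm5530, are described separately. Values after ± below are the absolute log2 difference divided by the square root of edgeR's F statistic. For members with few counts they can be narrower than counting error alone.

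**Figure D1:**
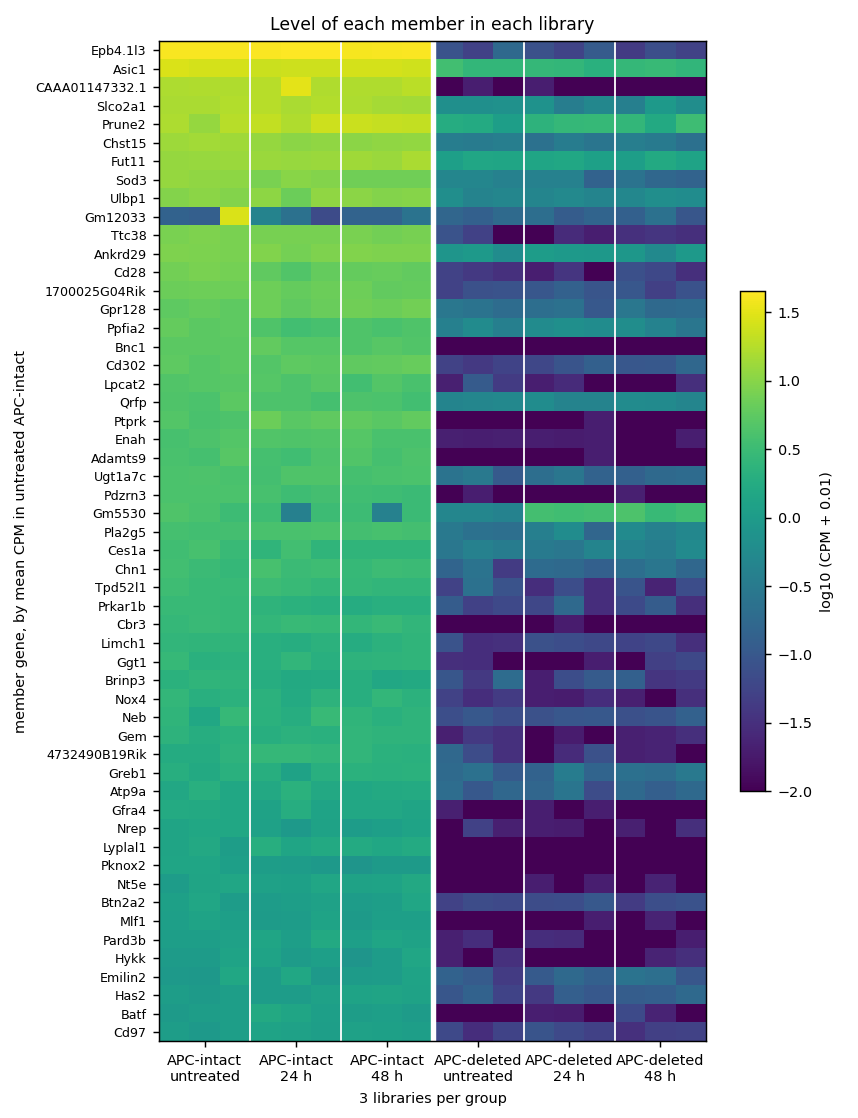
CPM of the 54 members (rows, ordered by mean CPM in untreated APC-intact cells) in the 18 libraries (columns, 3 per group), coloured on a log10 scale of CPM + 0.01. The 9 APC-intact columns are high and the 9 APC-deleted columns low for every gene apart from Gm12033 and Gm5530.

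The amount left differed widely between members. Pooled over the 6 treated libraries of each line, 23 members had under 1% of their APC-intact CPM in APC-deleted cells, 14 had 1 to 5% and 12 had 5 to 12.5%. Another 3 members, Ppfia2, Ces1a and Emilin2, kept 12.5 to 20%. The median was 2.06% in treated cells and 1.99% in the untreated cells that defined the set. Without Gm12033 and Gm5530 the members summed to 294 to 308 CPM in each APC-intact library and 10.6 to 13.8 CPM in each APC-deleted library. Each APC-intact library had a count for all 54 members, and each APC-deleted library for 39 to 43 of them.

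**Figure D2:**
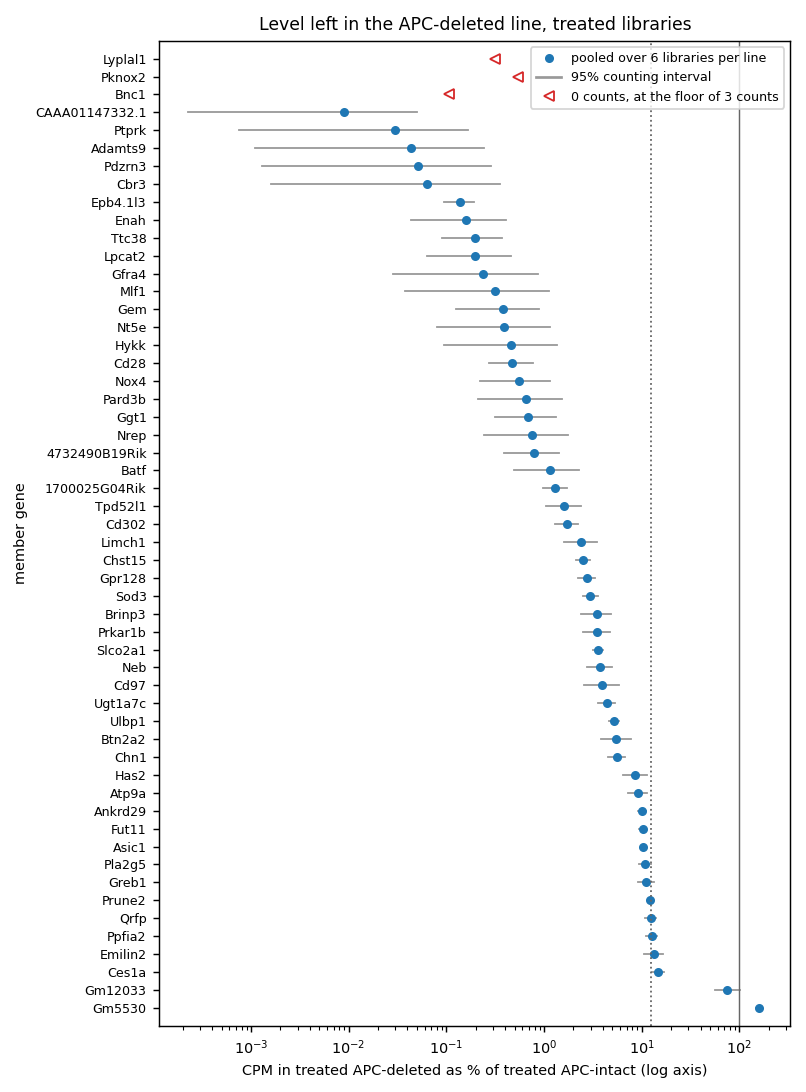
CPM left in treated APC-deleted cells as a percentage of treated APC-intact cells (log axis) for each member, pooled over 6 libraries per line, with exact 95% intervals that cover counting error only. The dotted line marks 12.5%, the 8-fold threshold of the rule, and open triangles mark members with 0 counts, placed at a floor of 3 counts over the 6 libraries; Gm12033 (75.4%) and Gm5530 (157%) stand apart at the bottom.

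The 5 members placed as transcription regulators were lower at both times, and they ranged from 0 counts to 11.2% left. Of all genes tested, 14.7% were lower at 48 h and 13.7% at 24 h. Members were chosen for low levels and 52 of 54 were called, so any role group would be nearly all lower. Such counts, here and below, say nothing about the role. Bnc1, which encodes the zinc finger protein basonuclin 1 of basal keratinocytes and germ cells, was at 5.39, 5.40 and 5.37 CPM in untreated APC-intact cells. It was at 5.96, 4.91 and 4.88 CPM there at 24 h and 4.40, 5.00 and 4.58 CPM at 48 h. No read was assigned to Bnc1 in any of the 9 APC-deleted libraries. At 48 h its level was lower by 406-fold against a floor of 3 counts over that group's 3 libraries, and the counting interval began at 330-fold. Pknox2, a homeobox gene of the TALE class, was likewise at 0 in all 9, and at 0.786, 0.977 and 0.977 CPM in APC-intact cells at 48 h. That was 79.8-fold higher against the same floor, and the counting interval began at 64.4-fold. Batf, an AP-1 family factor of lymphocytes, was at 1.09, 1.15 and 1.02 CPM at 48 h in APC-intact cells and 0.0558, 0.0130 and 0 CPM in APC-deleted ones, a log2 difference of −5.45 ± 0.48 (adjusted p = 1.25e-06). Of its counts there, 5 came from APC-deleted 48 h replicate 1, without which the difference was −7.21, and without replicate 3 it was −4.83. Mlf1, named for myeloid leukaemia factor 1, had 2 counts in the 6 treated APC-deleted libraries against 594 in the APC-intact ones, a ratio of 320 (counting interval 88.2 to 2647). Greb1, an oestrogen-responsive gene, kept the most of this group, with 0.212, 0.196 and 0.295 CPM against 2.19, 2.10 and 2.18 CPM at 48 h.

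Relatives were taken as genes that share the letters of a member's symbol and reached 1 CPM in a group, so relatives that were not expressed were not listed. For 19 members there were 101, of which 15 (14.9%) were lower and 25 (24.8%) higher at 48 h. The shares were 14.7% and 15.2% of all genes, and 15.8% and 17.8% of genes of at least 1 CPM in untreated APC-intact cells. Lower relatives included Brinp1 (−0.51 ± 0.12) and Ppfia3 (−0.50 ± 0.16), and the relatives named in the text are examples. Most of the 101 carry the broad roots Ankrd, Gpr or Ttc, and a shared root need not mean a close relation. The log2 differences of the 101 relatives ran from −2.0 to 1.01, so 0 of them were lower by 8-fold. Members were not counted as relatives, so the rule nearly fixed that 0. Bnc2 was at 23.3 CPM in APC-intact and 28.1 CPM in APC-deleted cells at 48 h (log2 difference 0.31 ± 0.07, adjusted p = 0.00626). Pknox1 was at 24.6 and 23.0 CPM and did not pass the test (−0.07 ± 0.06, adjusted p = 0.468), and Mlf2 was at 220.4 and 223 CPM.

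Members placed under membrane skeleton, actin and cell polarity included the one with the most reads. All 6 were lower at both times, as nearly all members were. Epb4.1l3, which encodes band 4.1B, a linker between membrane proteins and the spectrin-actin skeleton, was at 43.8, 45.1 and 45.4 CPM at 24 h and 41.1, 41.9 and 42.7 CPM at 48 h in the APC-intact line. The APC-deleted libraries had 0.0697, 0.0447 and 0.102 CPM at 24 h and 0.0335, 0.0652 and 0.0421 CPM at 48 h. The 2 lines lay far apart at each time, and the log2 difference was −9.76 ± 0.14 at 48 h (adjusted p = 6.98e-15) and −9.25 ± 0.13 at 24 h (adjusted p = 4.70e-15). At 48 h, 12 counts in APC-deleted cells gave a counting interval of 522 to 1766-fold for Epb4.1l3, which is wider than that ±. Its relatives, looked up after its value was known, went on being expressed: Epb4.1l2 was at 314 and 377 CPM at 48 h and Epb4.1l1 at 137 and 127 CPM in APC-intact and APC-deleted cells. Enah, which encodes the actin-filament regulator Mena, was at 4.90, 3.97 and 4.06 CPM at 48 h in the APC-intact line and 0, 0 and 0.0105 CPM in the deleted one. Over both times it had 4 counts in the 6 treated APC-deleted libraries against 2349, a ratio of 632 (counting interval 247 to 2323). Pard3b, a homologue of the polarity protein PAR3, and Limch1, an actomyosin regulator, kept 0.653% and 2.39%. Neb, which encodes the muscle thin-filament protein nebulin, kept 3.72%. Ppfia2, which encodes the synaptic scaffold liprin-alpha-2, kept 12.6% (0.603, 0.404 and 0.263 CPM against 4.44, 4.09 and 4.46 CPM at 48 h).

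Promoters are shown for 4 members: 2 with 0 counts in all 9 APC-deleted libraries (Bnc1 and Lyplal1), the member with the most reads (Epb4.1l3), and Ces1a, which kept 14.6% and shares the lowest promoter CpG number. Each runs from 250 bases before to 50 bases after the transcription start in RefSeq's GRCm38.p6 annotation, 5′ to 3′ on the gene's strand, with CpG dinucleotides in capitals. They lie at chr7:81992250-81992549 on the minus strand (Bnc1, 50 CpG), chr1:186117261-186117560 on the minus strand (Lyplal1, 17 CpG), chr17:69156494-69156793 on the plus strand (Epb4.1l3, 18 CpG) and chr8:93048143-93048442 on the minus strand (Ces1a, 2 CpG).
Bnc1: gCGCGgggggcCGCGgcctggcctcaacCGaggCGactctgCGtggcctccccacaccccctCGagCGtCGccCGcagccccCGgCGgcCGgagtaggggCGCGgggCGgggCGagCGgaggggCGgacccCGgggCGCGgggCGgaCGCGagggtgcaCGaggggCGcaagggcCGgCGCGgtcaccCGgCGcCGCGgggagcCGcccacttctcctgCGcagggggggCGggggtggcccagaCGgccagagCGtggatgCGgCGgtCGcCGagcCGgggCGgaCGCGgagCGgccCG
Lyplal1: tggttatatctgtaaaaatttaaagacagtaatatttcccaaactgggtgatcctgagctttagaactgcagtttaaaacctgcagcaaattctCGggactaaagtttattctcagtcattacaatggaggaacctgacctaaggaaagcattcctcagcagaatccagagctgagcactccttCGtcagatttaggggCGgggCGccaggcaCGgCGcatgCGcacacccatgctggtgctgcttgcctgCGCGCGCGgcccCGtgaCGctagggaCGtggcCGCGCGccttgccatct
Epb4.1l3: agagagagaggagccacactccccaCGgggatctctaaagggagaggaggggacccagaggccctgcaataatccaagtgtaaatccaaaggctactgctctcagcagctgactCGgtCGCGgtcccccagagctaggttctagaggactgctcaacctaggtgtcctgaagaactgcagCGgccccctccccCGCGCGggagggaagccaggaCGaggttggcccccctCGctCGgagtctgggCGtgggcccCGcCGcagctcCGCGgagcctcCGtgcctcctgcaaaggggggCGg
Ces1a: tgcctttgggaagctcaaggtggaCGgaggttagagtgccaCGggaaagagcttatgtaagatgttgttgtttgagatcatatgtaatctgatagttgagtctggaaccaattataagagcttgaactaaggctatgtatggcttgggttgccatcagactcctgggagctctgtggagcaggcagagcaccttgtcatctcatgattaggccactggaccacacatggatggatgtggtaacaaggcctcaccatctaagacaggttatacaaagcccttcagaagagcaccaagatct

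The members' promoters held between 2 and 50 CpG dinucleotides. Of the 54 members, 40 had a RefSeq start within 1000 bases of the gene's start in the count files. Their median CpG number was 18 in 300 bases, against 22 for 8234 genes of at least 1 CPM, and 24 of the 40 (60%) had at least 50% GC with an observed to expected CpG ratio of at least 0.6, against 74.9% of those genes. The 24 CpG-rich promoters belonged to members with a median of 0.509% left in treated APC-deleted cells, and 14 of them had under 1% left. The other 16 promoters belonged to members with a median of 3.50% left, and 3 of them had under 1% left. This split was made after the values were known and was not tested. High CpG number did not go with silence in each case, since Chn1 (43 CpG) kept 5.56% and Gfra4 (2 CpG) kept 0.237%. Motif matches on either strand were few. The TATA box TATAAA was found in 2 of 40 (5%, against 6.41% of all such promoters), and the TCF/LEF-type site CTTTGAT in 1 (2.5%, against 2.5%). The AP-1 site TGACTCA was found in 0 (against 3.4%), and the cAMP-response element TGACGTCA in 1 (2.5%, against 3.53%).

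**Figure D3:**
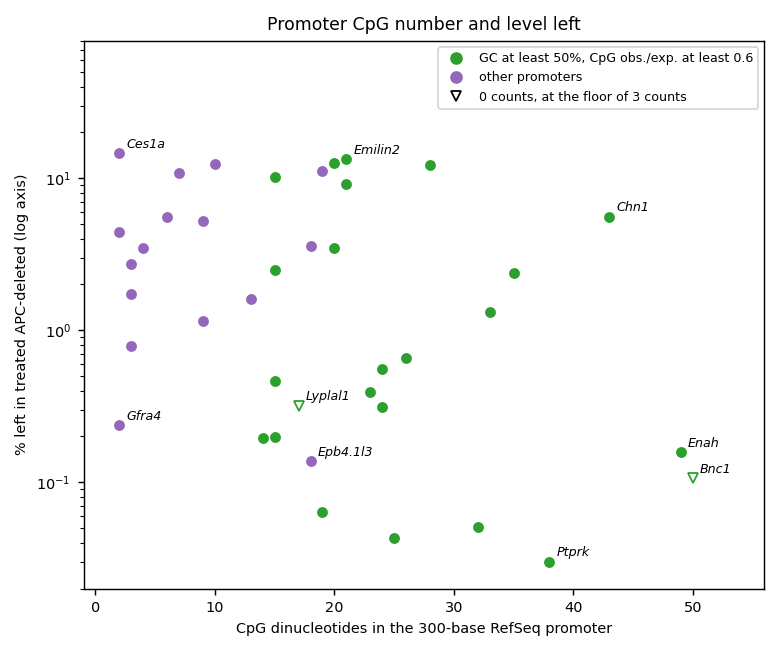
Number of CpG dinucleotides in the 300-base RefSeq promoter (x) against the percentage of APC-intact CPM left in treated APC-deleted cells (y, log axis) for the 40 members with a matched promoter. CpG-rich promoters are green and the others purple, and open triangles are members with 0 counts, at a floor of 3 counts over the 6 libraries; the medians of the groups are 0.509% and 3.50%.

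Members for enzymes of lipids and foreign compounds formed a group of 6, all lower at both times, as nearly all members were. Lyplal1, a serine hydrolase related to acyl-protein thioesterases, was at 1.69, 1.48 and 1.73 CPM at 48 h in APC-intact cells, with 0 counts in all 9 APC-deleted libraries. Its level there was 142-fold lower at 48 h against a floor of 3 counts over the group, and the counting interval began at 115-fold. Cbr3, a carbonyl reductase, was at 2.65, 2.99 and 2.53 CPM at 48 h in APC-intact cells and had 1 count in the 6 treated APC-deleted libraries against 1462, a ratio of 1575 (counting interval 282 to 62237). The paralogue Cbr1 beside it was higher in APC-deleted cells at 48 h (log2 difference 0.38 ± 0.10, adjusted p = 0.00766). Cbr4 was lower (−0.22 ± 0.07, adjusted p = 0.0375). Cbr2 did not pass the test at 48 h (−0.33 ± 0.27, adjusted p = 0.382) but was lower at 24 h (−1.06, adjusted p = 0.00907). Lpcat2, an acyltransferase of phosphatidylcholine and platelet-activating factor, kept 0.198% (5 counts against 2349), while Lpcat1 and Lpcat3 were at 36.4 and 58.0 CPM in APC-deleted cells at 48 h. Ugt1a7c, a glucuronosyltransferase, kept 4.39%. Its exons are partly shared with other Ugt1a genes, so its reads may come from them or reads of shared exons may be uncounted. Pla2g5, a secreted phospholipase, and Ces1a, a carboxylesterase, kept 10.8% and 14.6%. Ces1a had the smallest difference of the 52 at 48 h, with 2.43, 2.48 and 2.43 CPM against 0.413, 0.339 and 0.547 CPM (log2 difference −2.45 ± 0.23, adjusted p = 2.21e-06). Its reads may be shared with near-identical carboxylesterase genes or left uncounted.

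Of the members for matrix and glycans, all 5 were lower at both times, as nearly all members were, but only Adamts9 had under 1% left. Adamts9, a secreted protease that cuts the proteoglycans aggrecan and versican, was at 4.61, 3.81 and 4.34 CPM at 48 h in APC-intact cells and had 1 count in the 6 treated APC-deleted libraries against 2156, a ratio of 2322 (counting interval 416 to 91760). Of its relatives at 48 h, Adamts1 (56.5 and 66.0 CPM), Adamts4 (52.8 and 64.4 CPM), Adamts7 and Adamts14 were higher in APC-deleted cells. Adamts5, Adamts6 and Adamts10 did not pass the test then. At 24 h Adamts4, Adamts5 and Adamts7 were higher and the others, Adamts1 among them (adjusted p = 0.0736), did not pass. Chst15, a sulphotransferase acting on chondroitin sulphate, kept 2.50%. Of its relatives at 48 h, Chst2 (−0.70 ± 0.11) and Chst14 (−0.23 ± 0.07) were lower, Chst11 (0.17 ± 0.06) was higher and Chst12 did not pass. Has2, which makes hyaluronan, kept 8.62% and Fut11, a fucosyltransferase, 10.2%. Emilin2, an elastin-fibre glycoprotein, was at 0.991, 1.03 and 1.32 CPM against 0.234, 0.209 and 0.0842 CPM at 48 h, a log2 difference of −2.64 ± 0.33 (adjusted p = 4.14e-05).

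The 3 members placed under redox and glutathione metabolism were lower at both times, as nearly all members were. Sod3, the extracellular superoxide dismutase, was at 7.40, 7.27 and 7.25 CPM at 48 h in APC-intact cells and 0.234, 0.156 and 0.137 CPM in APC-deleted ones (log2 difference −5.33 ± 0.27, adjusted p = 3.72e-09). Of the intracellular enzymes, Sod2 went the other way at 48 h. It was at 61.25 CPM in APC-intact and 71.2 CPM in APC-deleted cells (log2 difference 0.25 ± 0.06, adjusted p = 0.00408). Sod1 was at 201 and 227 CPM and did not pass the test (0.20 ± 0.10, adjusted p = 0.153). Nox4, an NADPH oxidase, kept 0.557% and Ggt1, the gamma-glutamyltransferase that starts the breakdown of extracellular glutathione, 0.688%.

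The members for surface proteins known from immune and adhesion signalling were lower in all 7 cases at both times, as nearly all members were. Cd28, the costimulatory receptor of T cells, was at 6.13, 6.47 and 6.08 CPM at 48 h in APC-intact cells and 0.0670, 0.0521 and 0.0211 CPM in APC-deleted cells. The log2 difference was −7.01 ± 0.29 (adjusted p = 4.03e-10). T-cell markers were nearly absent: Cd3e had 1 count and Cd2 had 0 in all 18 libraries, Ptprc had 19, and the 10 T-cell markers summed to 4.19 to 5.60 CPM in APC-intact and 7.19 to 9.53 CPM in APC-deleted libraries, almost all of it Lck. Ulbp1, a ligand of the natural-killer receptor NKG2D, was at 10.4, 9.61 and 9.72 CPM against 0.480, 0.626 and 0.590 CPM at 48 h (−4.10 ± 0.18, adjusted p = 8.64e-10). Nt5e, the surface enzyme CD73 that makes adenosine, had 3 counts in the treated APC-deleted libraries against 714, a ratio of 256 (counting interval 87.4 to 1246). Btn2a2, a butyrophilin, kept 5.51%, and Cd302, a C-type lectin, kept 1.72%. The adhesion G protein-coupled receptors Gpr128 and Cd97 kept 2.74% and 3.96%, and Cd97 overlaps Ddx39 on the other strand.

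Among 9 members for transport and signalling, all were lower at both times, as nearly all members were. Ptprk, a receptor-type tyrosine phosphatase, was at 5.86, 5.25 and 6.01 CPM at 48 h in APC-intact cells and had 1 count in the 6 treated APC-deleted libraries against 3093, a ratio of 3331 (counting interval 597 to 131621). Gfra4, a receptor subunit for the GDNF-family ligand persephin, had 2 counts against 784, a ratio of 422 (counting interval 116 to 3492). Its relatives Gfra1 and Gfra2 also were lower in APC-deleted cells, at 57.3 and 34.0 CPM (log2 difference −0.72 ± 0.07) and 18.9 and 4.64 CPM (−2.0 ± 0.09) at 48 h. Asic1, an acid-sensing sodium channel, kept the most reads of any of these 9, with 2.70, 2.86 and 2.52 CPM left of 26.7, 26.8 and 24.4 CPM at 48 h (−3.24 ± 0.09, adjusted p = 1.49e-11). Slco2a1, the prostaglandin transporter, kept 3.55%. Gem, a small GTPase, kept 0.383%. Prkar1b, a regulatory subunit of protein kinase A, Chn1, a Rac-inactivating protein, Atp9a, a phospholipid flippase family member, and Qrfp, a neuropeptide precursor, kept 3.49%, 5.56%, 9.18% and 12.3%.

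The remaining 8 named genes were lower at both times, as nearly all members were, and 4 of them had under 1% left. Pdzrn3, a ubiquitin ligase with PDZ domains, had 1 count against 1818 in treated libraries, a ratio of 1958 (counting interval 351 to 77381). Ttc38, a tetratricopeptide-repeat gene, kept 0.196%, Hykk (hydroxylysine kinase) 0.461% and Nrep 0.756%. Tpd52l1, Brinp3, Ankrd29 and Prune2 kept 1.61%, 3.45%, 9.97% and 12.1%. A sequence-named gene on the unplaced scaffold JH584295.1, CAAA01147332.1, had the highest level per kilobase of exon in untreated APC-intact cells (69.6 CPM per kb) and 1 count in the 6 treated APC-deleted libraries against 10382, a ratio of 11182 (counting interval 2006.5 to 441702). The next highest per kilobase was Epb4.1l3, at 10.2 CPM per kb. The noncoding RNA 4732490B19Rik kept 0.788% and 1700025G04Rik 1.31%. In all, 4 members (7.41%) carry predicted or Rik symbols, against 6.97% of genes of at least 1 CPM.

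Levels at 24 h and 48 h of doxycycline were also compared within each line. By edgeR, 0 members changed in APC-deleted cells (0.251% of all genes were lower at 48 h and 0.061% higher), and 0 members changed in APC-intact cells (0.467% lower and 0.061% higher), where the times come from different file sets. The line difference itself differed between times for 0 members and for 0% of all genes in either direction. At unadjusted p under 0.05, edgeR gave 5 members in APC-deleted cells (Ggt1, Cd28, Hykk, Ppfia2 and Sod3). These were 9.26% of members, against 7.29% of all genes. With edgeR there were 0 in APC-intact cells (against 8.3%) and 3 for the difference of differences (5.56%, against 2.42%). DESeq2 gave 4 (7.41%, against 4.76%), 1 (1.85%, against 5.58%) and 2 (3.7%, against 1.78%). After adjustment 0 members were left in each. So few genes of any kind were called that 0 of 54 says nothing particular to the members. With 0 counts at both times, Bnc1, Lyplal1 and Pknox2 could show no change in APC-deleted cells, and members with a few counts could show little. Ggt1, for instance, had 0, 0 and 0.0102 CPM at 24 h and 0, 0.0391 and 0.0526 CPM at 48 h in APC-deleted cells, so those values overlap. In APC-intact cells, 52 members at 24 h and 51 at 48 h had a mean within 1.5-fold of untreated, as did 98.7% and 98.0% of all genes of at least 1 CPM. Besides Gm12033 and Gm5530, Sod3 was beyond it at 48 h, with 11.9, 11.3 and 11.0 CPM in untreated APC-intact cells, 8.21, 10.3 and 9.62 CPM at 24 h and 7.40, 7.27 and 7.25 CPM at 48 h. These comparisons with untreated cells have no test because the untreated libraries chose the members.

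**Figure D4:**
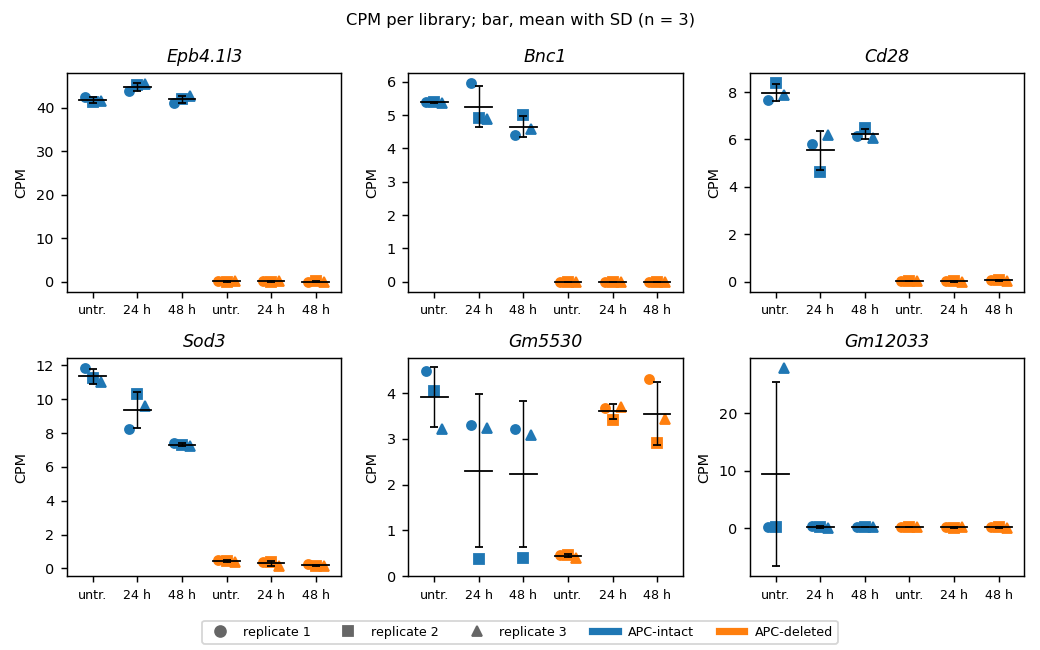
CPM in each library for 6 members, with the group mean and SD (n = 3) as bars and replicate numbers as marker shapes. Epb4.1l3, Bnc1, Cd28 and Sod3 keep the lines apart in all groups, whereas Gm5530 has its 5 low libraries in both lines and Gm12033 has 1 high library.

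The 2 exceptions are processed pseudogenes, whose reads may be shared with parent genes or left uncounted. They were singled out after their values were seen. Gm12033 (mm10 chr11:20334834-20336086) was at 0.130, 0.118 and 27.9 CPM in untreated APC-intact cells. All of its other libraries, in both lines, were between 0.0587 and 0.417 CPM, so APC-intact untreated replicate 3 alone placed it in the set. It did not pass the test at 48 h (−0.24 ± 0.59, adjusted p = 0.796) or at 24 h (−0.57 ± 0.57, adjusted p = 0.509). Gm5530 (mm10 chr1:81741985-81742969) was at 4.48, 4.05 and 3.21 CPM in untreated APC-intact cells and 0.464, 0.471 and 0.407 CPM in untreated APC-deleted cells. In treated APC-deleted cells it was at 3.68, 3.42 and 3.70 CPM at 24 h and 4.30, 2.92 and 3.44 CPM at 48 h, as high as in untreated APC-intact cells. In treated APC-intact cells replicates 1 and 3 were at 3.31 and 3.23 CPM at 24 h and 3.22 and 3.08 CPM at 48 h, and replicate 2 was at 0.387 and 0.393 CPM. The difference between the lines did not pass the test at 48 h (0.70 ± 0.76, adjusted p = 0.536) or at 24 h (0.66 ± 0.76, adjusted p = 0.581). Without replicate 2 of the APC-intact line at both times the 48 h difference was 0.20 (adjusted p = 0.390).

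The members were spread over the genome. They lay on 19 autosomes and 1 unplaced scaffold, and were 54 of 11440 genes of at least 1 CPM. Chromosome 1 held 8 (1.22% of its 656 such genes), chromosome 2 held 6 (0.66%) and chromosome 10 held 5 (0.92%). The lowest shares were 0.17% on chromosome 3 and 0.2% on chromosome 11, and this unevenness was not tested. Only 2 pairs were adjacent among genes of at least 1 CPM, namely Cd28 with Pard3b, 0.866 Mb apart on chromosome 1, and Lpcat2 with Ces1a, 0.101 Mb apart on chromosome 8. Mmp2, the gelatinase gene left out of the set by name, flanks the latter pair and was lower by a log2 difference of −5.97 ± 0.18 at 48 h (adjusted p = 2.68e-11). Epb4.1l3 and Emilin2 lay 1.96 Mb apart on chromosome 17 with 6 such genes between them. Another tested gene overlaps 9 members (Cd97, Emilin2, Adamts9, Fut11 and Chn1 on the other strand, and Prkar1b, Lpcat2, Limch1 and Ugt1a7c on the same strand). Reads of overlapping genes may have been counted for either or for neither.

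Most non-member genes next to the members did not pass the test between the lines. Members were not counted as neighbours here. Of the 102 nearest genes of at least 1 CPM outside the set on either side, 13 (12.7%) were lower and 13 (12.7%) higher at 48 h, against 15.8% and 17.8% of all 11440 such genes. Among these 102 non-members, Mmp2 alone was lower by 8-fold or more. The rule nearly fixed this outcome. A neighbour with such a difference in untreated cells would itself be a member unless left out by name. The count thus cannot show whether low levels stop at the members. Beside Bnc1, Sh3gl3 was higher in APC-deleted cells by 0.99 ± 0.16 and Hdgfrp3 by 0.50 ± 0.10. Beside Epb4.1l3, Arhgap28 was higher by 0.22 ± 0.06.

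**Figure D5:**
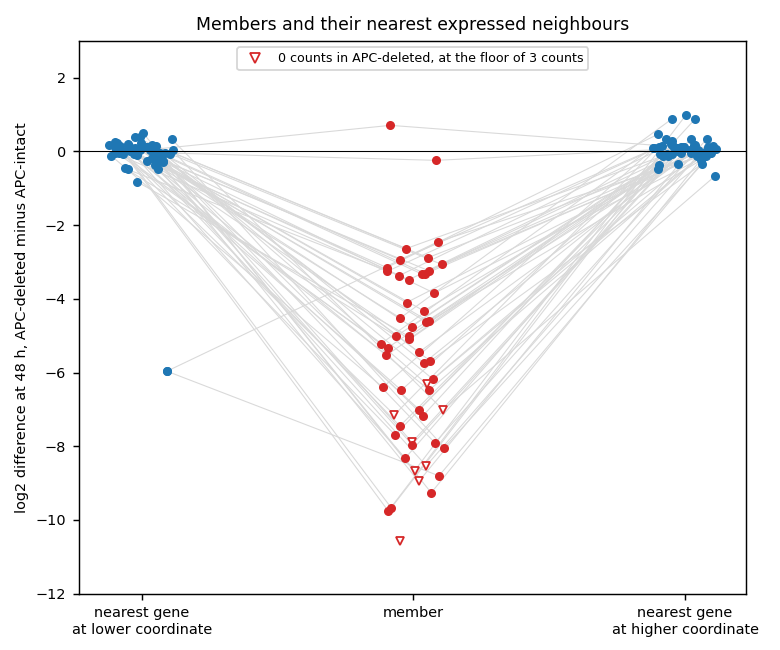
Log2 difference between the lines at 48 h (APC-deleted minus APC-intact) for each member (red) and the nearest non-member gene of at least 1 CPM on each side (blue), joined by grey lines, with open triangles at a floor of 3 counts over the 3 libraries at 48 h. Neighbours lie between −0.83 and 0.99 apart from Mmp2 at −5.97, and members reach far lower. Members were chosen for low levels and were not counted as neighbours, so this gap is largely built in.

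Genes that write, remove or read silencing marks were compared between the lines as 3 lists, beside 14.7% of all genes lower and 15.2% higher at 48 h. Nearly all listed genes reached 1 CPM, and of genes of at least 1 CPM in untreated APC-intact cells 15.8% were lower and 17.8% higher. Of 15 genes of DNA methylation and demethylation, 2 (13.3%) were lower at 48 h, among them Uhrf1 (−0.21 ± 0.06), and 4 (26.7%) were higher (Dnmt3a, 0.34 ± 0.06, Dnmt3b, 0.39 ± 0.09, Uhrf2, 0.34 ± 0.07, and Mbd4, 0.25 ± 0.07). Dnmt1, the maintenance methyltransferase, did not pass the test (−0.03 ± 0.05, adjusted p = 0.675). Of 30 Polycomb genes, 1 (3.33%) was lower (Pcgf3, −0.26 ± 0.06) and 7 (23.3%) were higher, the furthest being Rbbp7 (0.64 ± 0.05), while Ezh2 did not pass (−0.09 ± 0.06, adjusted p = 0.291). Of 12 genes of histone H3 lysine 9 methylation, 0 were lower and 3 (25.0%) were higher (Daxx, Ehmt2 and Setdb2, 0.20 to 0.33). The medians of the lists were −0.03, 0.06 and 0.10. At 24 h, 5, 1 and 0 genes of the lists were lower and 4, 5 and 2 were higher, beside 13.7% and 12.6% of all genes.

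The edges of the set were not sharp. Just inside the 8-fold threshold lay Gm5530 (8.56), Fut11 (9.20) and Asic1 (9.29), and just outside it Cpne8 (7.33), Gm8995 (7.28) and Ptplad2 (7.22). Just inside the level threshold lay Cd97 (1.02 CPM), Batf (1.05) and Has2 (1.06), and just outside it Shank2 (0.994), Gm6871 (0.939) and Fam221a (0.807). At a threshold of 4-fold 89 genes would have entered, and at 16-fold 41.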

How the data were processed

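Deposited files held 1 count per gene and library. Reads were processed with STAR and HTSeq on mm10, per the submitters' processing notes; versions and the strand setting are not given in the sources used here. The authors' summary entries that name no gene (22.9% to 25.5% of each file) were left out. CPM were computed from these counts by dividing by the sum over genes. Members and lists were chosen with earlier results of these data known, and roles were assigned by hand.

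Tests used edgeR 4.0.16 (R 4.3.3) on the 12 treated libraries: TMM, filterByExpr by group (14765 genes), 1 coefficient per group, robust quasi-likelihood fit, Benjamini-Hochberg adjustment over all genes. The script was tested on simulated data. Alternatives were DESeq2 1.42.0, other scaling, no filter, other sets of libraries, a replicate block and each library left out. Replicates differed by more than sampling noise (chi-square per degree of freedom of at least 7.90). Same-numbered libraries correlated at −0.07 to 0.25 after removal of group means (2 of 18 pairs over 0.1) and different-numbered ones at up to 0.11, and nothing in the labels ties a number to a shared culture or day, so they were not taken to pair libraries.

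Percentages left carry exact binomial 95% intervals on pooled counts, which cover counting error only, and reads are not independent molecules. Promoters came from RefSeq (GRCm38.p6). Genes named by rule (33 members) were the 10 with the highest level, the 10 with the lowest share left, the 10 with the smallest difference at 48 h, those nearest the thresholds, adjacent members and members in the lists; the other members are named to complete the role groups. All 54 members passed the filter on low counts, many through the APC-intact libraries alone. Counts of members called, those of the role groups included, are thus to be read beside the share of all genes. A single member's adjusted p belongs to a gene already chosen for a low level in that line.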

Additional observations from a re-analysis of the deposited data

How the results depend on the processing

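All 52 members lower in APC-deleted cells at each time kept that call in each alternative run, and no member changed between times in any. With DESeq2 the number of all genes changed from 24 to 48 h was 132 in the APC-deleted line and 145 in the APC-intact line, against 46 and 78 with edgeR. Fitting the compared groups alone gave 22 and 49, with all 18 libraries 78 in APC-deleted cells, and without replicate 2 of APC-intact at both times (added after seeing the data) 20 in APC-intact cells. Leaving out 1 library gave 23 to 71 and 29 to 85, and 0 to 1 for the line difference between times; the highest count in APC-deleted cells came without APC-deleted 48 h replicate 2. Causes were not tested. Gm12033, which passed no test, ranged from −0.665 to 0.080 at 48 h and from −1.05 to 0.148 at 24 h with 1 library left out: it was above 0 without APC-deleted or APC-intact 48 h replicate 3, without APC-intact 24 h replicate 1, and at 24 h without both libraries that stand apart (0.152, added after seeing the data). With the replicate block, 52 members were lower at each time and 0 changed between times; all genes changed numbered 4822 at 48 h and 4290 at 24 h (4409 and 3892 without it), and the block changed no call on members. A ratio threshold of 4 gave 89 members, and leaving out 1 untreated library gave 52 to 58: without APC-intact untreated replicate 1 Gm5530 was lost, and without replicate 3 Cd97, Emilin2 and Gm12033 were. Depth limits the lowest values: with 1 to 3 counts in 6 libraries a ratio is known only within its interval.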
